A study of Mus musculus with 6 samples.

Results

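The 46 genes described here are the mouse splicing factor and hnRNP genes whose symbols start with Srsf, Hnrnp, Snrp or Sf3, out of 19938 genes that have a probe set of their own on the array. They comprise 17 Hnrnp, 10 Snrp, 10 Srsf and 9 Sf3 genes. Each gene was read from the probe set that the platform annotation gives to its symbol alone, and where several existed the brightest over the 6 arrays was taken. The annotation names 52 symbols with these prefixes, and 6 of them (Hnrnpa1, Hnrnpa1l2-ps2, Hnrnpa3, Hnrnph3, Snrpf and Snrpn) lie on probe sets shared with other symbols and entered no test. Srsf7 was not analysed here.

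The RNA came from BDC2.5 CD4 T cells, which carry a T cell receptor specific for a pancreatic islet antigen, after transfer into non-obese diabetic (NOD) mice, a strain that develops autoimmune diabetes. All 3 groups received these cells and were 7-week-old females, and Thy1.1+CD4+ cells were sorted from spleen 14 hours after an intravenous injection. The PBS group received buffer, the DEC-BDC group 100 ng of an anti-DEC205 antibody carrying the BDC antigen, and the DCIR2-BDC group 100 ng of an anti-DCIR2 antibody carrying it, with 2 arrays per group. The antibodies deliver the antigen to 2 kinds of dendritic cell, which carry one or the other of these receptors on their surface. A group given antibody without antigen was not analysed here, so the antibody and the antigen cannot be told apart against PBS.

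Splicing removes introns from pre-mRNA in the spliceosome, which is built from small nuclear ribonucleoproteins (snRNPs). The Snrp genes encode the ring of Sm proteins shared by most snRNPs and proteins particular to U1, which reads the 5′ splice site, and to U2, which reads the branch point. The SF3a and SF3b complexes, encoded by the Sf3 genes, are parts of U2. SR proteins (Srsf) bind exons and mostly favour their inclusion, while hnRNP proteins coat pre-mRNA and often oppose it. In T cells these regulators are known for the switch in CD45 exons that follows activation, in which Hnrnpll acts.

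The splicing genes were mostly higher in T cells from mice given either antibody than in T cells from PBS mice. In DEC-BDC against PBS, 15 of the 46 genes rose and 1 fell at an adjusted p under 0.05 (limma, Benjamini-Hochberg over all 19938 genes), where 5.32% of all genes rose and 3.53% fell, or 8.84% in either direction. In DCIR2-BDC against PBS, 21 rose and 1 fell, where 10.1% of all genes rose and 7.82% fell, or 17.9% in either direction. The median log2 change of the 46 genes was 0.45 after DEC-BDC and 0.58 after DCIR2-BDC, against -0.03 and -0.05 over all genes. The shares over all genes include many genes dimmer than the members. Among the 9969 genes left without the dimmest 50%, 1235 rose and 830 fell after DEC-BDC, with 18 members rising and 1 falling. After DCIR2-BDC, 2126 of these genes rose and 1518 fell, with 26 members rising and 2 falling. Of the members, Srsf12 was dropped with the dim genes. The 2 comparisons share the PBS arrays and are therefore not independent of each other.

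For most of the genes, the arrays of the groups did not overlap. Both DEC-BDC arrays lay above both PBS arrays for 33 of the 46 genes, where 22.2% of all genes did so, and below them for 3, where 26.5% did. Both DCIR2-BDC arrays lay above both PBS arrays for 36, where 23.4% of all genes did so, and below them for 4, where 31.9% did. The mean was higher than in PBS for 41 genes after DEC-BDC and for 40 after DCIR2-BDC. Over all 19938 genes, this held for 9147 and 8478.

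With 2 arrays per group, the number of calls against PBS depended on single arrays, most so after DEC-BDC. The 15 rises became 7 without PBS array 1, 7 without PBS array 2, 9 without DEC-BDC array 1, 5 without DEC-BDC array 2, 7 without DCIR2-BDC array 1 and 7 without DCIR2-BDC array 2, and no member fell in any of these fits. The calls for Sf3b4, Snrpa1, Snrpd1 and Snrpd2 passed in each of 14 alternative analyses, and the other 12 of the 16 calls after DEC-BDC were lost in at least 1. After DCIR2-BDC, 15 of the 22 calls passed in all 14. No called gene changed direction against PBS in any of them.

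The 4 families differed in how many members moved. After DEC-BDC, 6 of 9 Sf3 genes and 6 of 10 Snrp genes rose, against 2 of 10 Srsf genes and 1 of 17 Hnrnp genes. The shares were 66.7%, 60%, 20% and 5.88%, where 5.32% of all genes rose, so the Hnrnp share was near that of all genes. After DCIR2-BDC, 7 of 9 Sf3, 7 of 10 Snrp, 2 of 10 Srsf and 5 of 17 Hnrnp genes rose. These were 77.8%, 70%, 20% and 29.4%, where 10.1% of all genes rose. The median log2 change after DCIR2-BDC was 1.16 for Sf3, 0.98 for Snrp, 0.44 for Hnrnp and 0.38 for Srsf, and after DEC-BDC it was 0.80, 0.67, 0.19 and 0.25. The difference between families was not tested. The fall in both comparisons was that of Sf3b1.

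Several facts of the whole series bear on these values. The deposited log2 values had array medians between 5.43 and 5.56, so a change in total RNA per cell would not show, and in these bulk samples fewer cells of a type and less RNA per cell cannot be told apart. The probe sets read whole transcripts, so they give the level of a gene and not which exons its mRNA holds. The sorted cells had high levels of CD4 T cell genes: Cd3e lay at percentile 99.7 and Cd4 at percentile 99.1 of all genes, and the mean log2 level of 9 measured CD4 T cell markers was between 10.1 and 10.8 on every array. Of these 9 markers, 6 fell after DCIR2-BDC and 0 after DEC-BDC, while Zap70, the kinase that binds the activated receptor, rose in both. The 7 marker lists of other cells, with 33 of 39 genes measured, had mean log2 levels between 3.81 and 6.37. Their genes spread over the percentiles, for B cells from Ms4a1 at 9.96 to Cd79b at 54.1. Those of macrophages and monocytes went from Lyz2 at 14.3 to Cd68 at 68.2. The highest of all were Eomes of the CD8 T cell list at 71.9 and Ly75 of the dendritic cell list at 71.7. The lowest was Clec4a4 of the dendritic cell list at 3.93. Among those 33 genes, Eomes rose and Ly75, which encodes DEC205, fell after both antibodies, and Gzma and Klrk1 fell after DCIR2-BDC. The part of these markers in the splicing results was not tested.

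The Sm ring held the gene with the largest change in both comparisons against PBS, Snrpd1. Of the 6 Sm genes with a probe set of their own, 3 rose after DEC-BDC and 4 after DCIR2-BDC. Snrpd1, which encodes SmD1, had log2 levels of 8.43 and 8.74 in PBS, 10.26 and 10.11 after DEC-BDC, and 10.59 and 10.59 after DCIR2-BDC. The 3 groups did not overlap, and both antibody groups lay well above the PBS arrays. It rose by 1.60 on the log2 scale after DEC-BDC, or 3.04-fold (SE 0.16, adjusted p = 0.000671), and by 2.01 after DCIR2-BDC, or 4.02-fold (SE 0.16, adjusted p = 4.88e-05).

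Snrpd2, which encodes the SmD2 partner of SmD1 in the ring, had log2 levels of 9.61 and 9.83 in PBS, 10.74 and 10.98 after DEC-BDC, and 10.91 and 10.90 after DCIR2-BDC. Here the antibody groups overlapped each other and both lay above PBS. The rise was 2.20-fold after DEC-BDC (log2 1.14, SE 0.14, adjusted p = 0.00135) and 2.27-fold after DCIR2-BDC (log2 1.18, SE 0.14, adjusted p = 0.00028). This gene has 5 probe sets of its own, whose log2 changes ranged from 1.11 to 1.15 after DEC-BDC and from 1.18 to 1.46 after DCIR2-BDC, so the probe sets gave changes of like size.

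Snrpb encodes SmB, the Sm protein with a long tail that also autoregulates its own splicing. The arrays read log2 levels of 7.37 and 7.50 in PBS, 8.07 and 8.62 after DEC-BDC, and 8.25 and 8.66 after DCIR2-BDC. The spread within the antibody groups was wide, yet neither reached down to PBS. The rise was 1.88-fold after DEC-BDC (log2 0.91, adjusted p = 0.0359) and 2.03-fold after DCIR2-BDC (log2 1.02, adjusted p = 0.0111). The DEC-BDC call was lost without any 1 of the arrays except DEC-BDC array 1 (adjusted p up to 0.226 over the alternatives), and the DCIR2-BDC call without PBS array 1 or DCIR2-BDC array 2 (up to 0.12).

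The other Sm genes moved less. Snrpg, which encodes SmG, had log2 levels of 10.002 and 9.71 in PBS, 10.19 and 10.17 after DEC-BDC, and 10.49 and 10.35 after DCIR2-BDC, and it rose after DCIR2-BDC (log2 0.56, adjusted p = 0.0241). That call was lost without PBS array 2 or either DCIR2-BDC array. It was also lost with quantile normalization, with every probe set tested and with the mean of its probe sets. The log2 change of Snrpg after DEC-BDC was 0.32 (adjusted p = 0.257), and its second probe set gave 0.34 after DEC-BDC and 0.44 after DCIR2-BDC. Snrpd3, encoding SmD3, had both antibody groups above PBS but did not pass, with log2 changes of 0.50 (adjusted p = 0.0667) and 0.45 (adjusted p = 0.0628). Snrpe, encoding SmE, had log2 changes of 0.39 (adjusted p = 0.346) and 0.35 (adjusted p = 0.341), with PBS arrays at 8.99 and 8.57 and DCIR2-BDC arrays at 8.89 and 9.36 that overlapped them. The ring is assembled with these proteins in equal number, and the measured mRNA changes against PBS ranged from 0.32 to 1.60 after DEC-BDC and from 0.35 to 2.01 after DCIR2-BDC.

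The U2 genes of the family rose in both comparisons. Snrpa1 encodes the A′ protein of U2, which pairs with the B″ protein on the U2 RNA. Its log2 levels were 7.87 and 7.77 in PBS, 9.09 and 8.93 after DEC-BDC, and 9.10 and 9.42 after DCIR2-BDC. The 4 antibody arrays lay above both PBS arrays. It rose 2.28-fold after DEC-BDC (log2 1.19, SE 0.19, adjusted p = 0.00375) and 2.71-fold after DCIR2-BDC (log2 1.44, SE 0.19, adjusted p = 0.000444). Snrpb2, encoding the B″ protein, had log2 levels of 7.52 and 7.46 in PBS, 8.13 and 8.16 after DEC-BDC, and 8.44 and 8.41 after DCIR2-BDC. The replicate arrays of Snrpb2 lay close together and the groups did not overlap. It rose 1.57-fold (log2 0.65, adjusted p = 0.0481) and 1.91-fold (log2 0.93, adjusted p = 0.00415). The first of these calls was lost without any 1 of the 6 arrays, with adjusted p up to 0.177.

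Of the U1 genes, Snrpa encodes the A protein, which binds a stem loop of the U1 RNA. Its log2 levels were 8.58 and 8.65 in PBS, 9.27 and 9.34 after DEC-BDC, and 9.90 and 9.74 after DCIR2-BDC. The 3 groups stood in that order without overlap, with tight replicates. It rose 1.62-fold after DEC-BDC (log2 0.70, adjusted p = 0.0233) and 2.31-fold after DCIR2-BDC (log2 1.21, adjusted p = 0.000514). The DEC-BDC call was lost without either PBS array or either DEC-BDC array, with adjusted p up to 0.123. Snrpc, encoding the C protein, which touches the 5′ splice site, had PBS arrays at 7.89 and 7.30 and did not pass, with log2 changes of 0.43 (adjusted p = 0.321) and 0.50 (adjusted p = 0.183). Its 3 probe sets ranged from -0.02 to 0.68 after DEC-BDC.

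**Figure D1:**
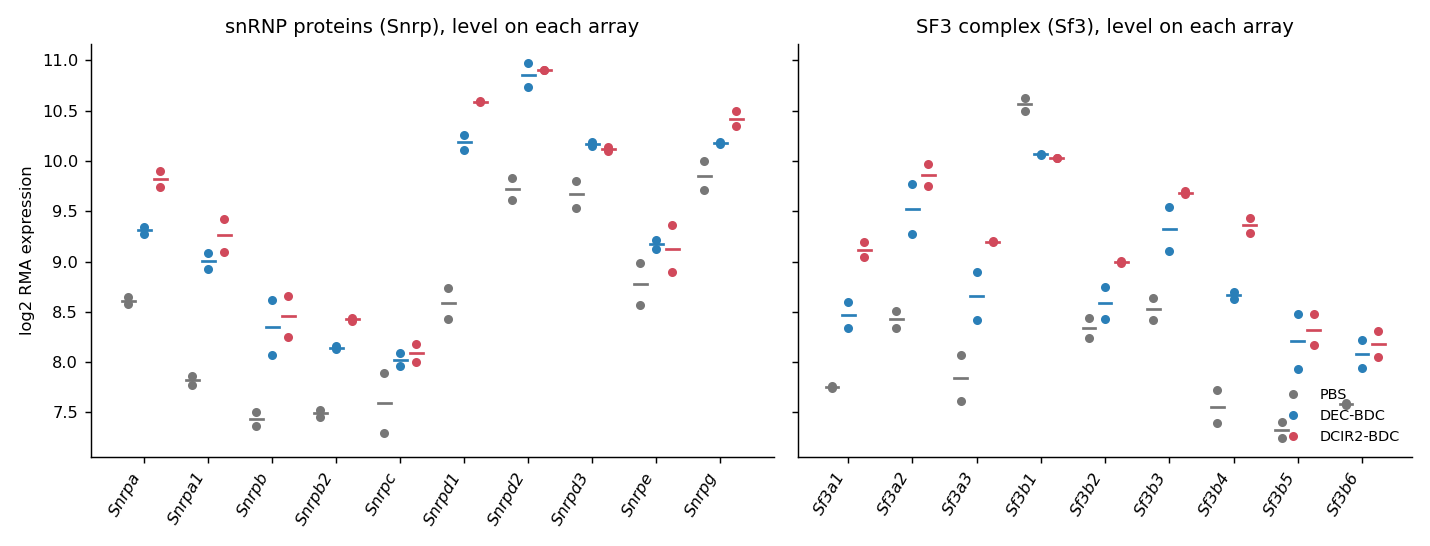
Log2 RMA expression (vertical axis) of the Snrp genes (left) and Sf3 genes (right) on each array, with points for the 2 arrays of a group and a bar at their mean, in PBS (grey), DEC-BDC (blue) and DCIR2-BDC (red). Snrpd1 goes from 8.43 and 8.74 in PBS to 10.59 after DCIR2-BDC, and Sf3b1 has PBS on top; levels of different genes come from different probe sets and are not comparable.

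The SF3a complex joins U2 to the branch point region, and its 3 genes rose in both comparisons. Sf3a2 had log2 levels of 8.51 and 8.34 in PBS, 9.77 and 9.28 after DEC-BDC, and 9.97 and 9.75 after DCIR2-BDC. It rose 2.15-fold (log2 1.10, SE 0.20, adjusted p = 0.00754) and 2.71-fold (log2 1.44, SE 0.20, adjusted p = 0.000658). The antibody groups of Sf3a2 overlapped each other and neither overlapped PBS. Without DEC-BDC array 1, the call after DEC-BDC was lost, at an adjusted p of up to 0.0648 over the alternatives.

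Sf3a1, whose protein binds U1 as well as U2, had log2 levels of 7.76 and 7.75 in PBS, 8.60 and 8.34 after DEC-BDC, and 9.05 and 9.19 after DCIR2-BDC. The groups stood apart in that order. The rise was 1.64-fold (log2 0.72, adjusted p = 0.0368) and 2.58-fold (log2 1.37, adjusted p = 0.000546). Sf3a3, which encodes the remaining SF3a subunit, had log2 levels of 8.07 and 7.62 in PBS, 8.42 and 8.90 after DEC-BDC, and 9.19 and 9.20 after DCIR2-BDC. Its groups also stood apart in that order, with wider replicate spread in PBS and DEC-BDC. The rise was 1.76-fold (log2 0.81, adjusted p = 0.0491) and 2.56-fold (log2 1.35, adjusted p = 0.00182). After DEC-BDC, the Sf3a1 call was lost without any 1 of the 6 arrays (adjusted p up to 0.2), and the Sf3a3 call without PBS array 2, DEC-BDC array 2 or either DCIR2-BDC array (up to 0.283). The Sf3a3 call was also lost with only the 4 arrays compared, with quantile normalization and with every probe set tested.

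In the SF3b complex, which clamps the branch point duplex, 3 of 6 genes rose after DEC-BDC and 4 after DCIR2-BDC, and Sf3b1 fell in both. Sf3b4, encoding an RNA-binding subunit that contacts pre-mRNA upstream of the branch point, had log2 levels of 7.72 and 7.39 in PBS, 8.70 and 8.63 after DEC-BDC, and 9.28 and 9.43 after DCIR2-BDC. All 3 groups were separate. The rise was 2.15-fold (log2 1.11, SE 0.19, adjusted p = 0.0058) and 3.49-fold (log2 1.80, SE 0.19, adjusted p = 0.000143). Its other probe set gave smaller log2 changes of 0.64 and 1.24.

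Sf3b3, a large scaffold subunit, had log2 levels of 8.42 and 8.64 in PBS, 9.10 and 9.54 after DEC-BDC, and 9.70 and 9.67 after DCIR2-BDC, and the groups did not overlap. It rose 1.74-fold (log2 0.80, adjusted p = 0.0274) and 2.23-fold (log2 1.16, adjusted p = 0.00182). Sf3b5, a small subunit, had log2 levels of 7.24 and 7.41 in PBS, 7.94 and 8.48 after DEC-BDC, and 8.17 and 8.47 after DCIR2-BDC. The antibody groups of Sf3b5 overlapped each other and both lay above PBS. It rose 1.84-fold (log2 0.88, adjusted p = 0.0376) and 1.99-fold (log2 0.996, adjusted p = 0.0112). The DEC-BDC calls were lost without PBS array 1, DEC-BDC array 2 or either DCIR2-BDC array for both genes, and without PBS array 2 for Sf3b5 (adjusted p up to 0.196 for Sf3b3 and 0.237 for Sf3b5), and the DCIR2-BDC call of Sf3b5 without PBS array 1 or DCIR2-BDC array 2 (up to 0.113).

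Sf3b2, a subunit that binds Sf3b4, had log2 levels of 8.24 and 8.44 in PBS, 8.43 and 8.75 after DEC-BDC, and 9.01 and 8.98 after DCIR2-BDC. DEC-BDC overlapped PBS (log2 change 0.25, adjusted p = 0.522), and the rise was 1.58-fold after DCIR2-BDC (log2 0.66, adjusted p = 0.0338). That call was lost without either PBS array or either DCIR2-BDC array, with adjusted p up to 0.164. Sf3b6, whose protein contacts the branch point adenosine, had log2 changes of 0.50 (adjusted p = 0.172) and 0.59 (adjusted p = 0.0642), with both antibody groups above PBS.

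Sf3b1, the largest SF3b subunit and a frequent target of mutation in blood cancers, moved the other way. On the log2 scale it stood at 10.50 and 10.63 in PBS, 10.06 and 10.07 after DEC-BDC, and 10.03 and 10.03 after DCIR2-BDC. The 4 antibody arrays lay within a narrow range below both PBS arrays. It fell by 0.50 on the log2 scale after DEC-BDC, or 1.41-fold lower (SE 0.13, adjusted p = 0.0426), and by 0.53 after DCIR2-BDC, or 1.45-fold lower (SE 0.13, adjusted p = 0.0172). The first call was lost without any 1 of the 6 arrays, and the second without PBS array 2 or either DCIR2-BDC array (adjusted p up to 0.197 and 0.107). Both calls were also lost when the arrays were centred on their medians, where both changes were -0.43. The direction held in all 14 alternatives.

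The stretches of 100 bases just before the annotated start of 4 of these U2 genes are given here. These genes rose after DCIR2-BDC and encode parts of one particle. The same holds for other genes, among them Sf3a1, Sf3b3 and Snrpb2, whose stretches are not shown. The sequences are from RefSeq on build GRCm38.p6, which also gave 300-base windows (250 bases before the start and 50 after) for 40 of the 46 genes. The genes without a window were Hnrnpll, Hnrnpul2, Sf3b4, Sf3b5, Snrpb and Snrpd1. All of these except Hnrnpul2 rose in both comparisons against PBS, and the motif counts below leave them out. Capitals mark the letters of an ETS site (CCGGAAGT), a GC box (GGGCGG) or an E-box (CACGTG) on either strand, written as they read on the strand of the gene. Sf3a3 lies on the plus strand at chr4:124714761-124714860, Sf3b2 on the minus strand at chr19:5295458-5295557, Snrpa1 on the plus strand at chr7:66060236-66060335 and Sf3a2 on the plus strand at chr10:80798635-80798734.
Sf3a3: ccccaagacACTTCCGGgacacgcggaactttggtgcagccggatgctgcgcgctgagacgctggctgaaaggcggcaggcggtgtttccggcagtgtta
Sf3b2: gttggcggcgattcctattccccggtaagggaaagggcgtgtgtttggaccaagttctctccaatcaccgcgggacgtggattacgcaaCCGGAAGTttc
Snrpa1: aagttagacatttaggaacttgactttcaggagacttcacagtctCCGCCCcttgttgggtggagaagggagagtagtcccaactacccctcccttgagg
Sf3a2: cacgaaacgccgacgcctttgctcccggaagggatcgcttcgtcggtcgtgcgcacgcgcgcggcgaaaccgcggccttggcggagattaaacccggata

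The ETS letters start 91 bases before the Sf3a3 start and 11 bases before the Sf3b2 start, the GC box letters start 55 bases before that of Snrpa1, and the Sf3a2 stretch holds none of these 3 motifs. Over the 300-base windows of the members, 8 of 40 (20.0%) hold the ETS letters on either strand (Hnrnpd, Hnrnpf, Sf3a1, Sf3a3, Sf3b2, Snrpe, Srsf4 and Srsf5), against 3.99% of all 27025 windows and 5.56% of the 15614 windows of genes named on the array. Of these 8, Sf3a1 and Sf3a3 rose in both comparisons against PBS, and Sf3b2 rose after DCIR2-BDC only. Hnrnpd, Hnrnpf, Snrpe, Srsf4 and Srsf5 passed in neither, and Srsf5 was lower and not higher in the antibody groups. Whether the letters go with the changes was not tested. The GC box letters are in 28 of 40 (70.0%), against 35.9% and 49.9%, and the CCAAT letters in 18 (45.0%), against 38.0% and 38.4%. The E-box letters, which the transcription factor Myc can bind, are in 4 of 40 (10%; Hnrnpd, Hnrnph2, Hnrnpm and Snrpa), against 7.24% and 8.40%, and Snrpa holds them 73 and 32 bases before its start. The TATA letters (TATAAA) are in 6 (15.0%), against 14.2% and 12.1%. None of the 5 motifs contains another, and a match is a description of letters, not a bound site.

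Among the SR proteins, Srsf1 and Srsf10 rose and the others did not pass. Srsf1 encodes the first SR protein described, an activator of exon inclusion. Its log2 levels were 8.66 and 8.70 in PBS, 9.22 and 9.52 after DEC-BDC, and 9.73 and 9.95 after DCIR2-BDC. The groups stood in that order without overlap. The rise was 1.61-fold (log2 0.69, SE 0.17, adjusted p = 0.035) and 2.23-fold (log2 1.16, SE 0.17, adjusted p = 0.00111). The call after DEC-BDC was lost without any 1 of the 6 arrays (adjusted p up to 0.223).

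Srsf10 encodes an SR protein that represses splicing when it is dephosphorylated. Levels on the log2 scale were 9.68 and 9.74 in PBS, 10.33 and 10.42 after DEC-BDC, and 10.61 and 10.76 after DCIR2-BDC. The replicates lay close together and the groups were separate. The rise was 1.58-fold (log2 0.66, SE 0.13, adjusted p = 0.013) and 1.96-fold (log2 0.97, SE 0.13, adjusted p = 0.000645). Its second probe set gave log2 changes of 0.18 and 0.42, and with the mean of both sets the DEC-BDC change was 0.42 and the call was lost, as it was without PBS array 1 or either DEC-BDC array (adjusted p up to 0.166).

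Srsf9, a short SR protein, had the largest DEC-BDC change of the family, yet its 2 arrays there lay far apart. Levels on the log2 scale were 7.10 and 7.55 in PBS, 7.47 and 8.71 after DEC-BDC, and 7.94 and 8.58 after DCIR2-BDC. The log2 changes were 0.77 (SE 0.37, adjusted p = 0.271) and 0.94 (SE 0.37, adjusted p = 0.119). When single arrays were left out, the DEC-BDC change went from 0.15 to 1.39, and it passed without DEC-BDC array 1 at an adjusted p of 0.0297.

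Srsf2, an SR protein of nuclear speckles, and Srsf3, which also serves mRNA export, had both antibody groups above PBS and did not pass. The log2 changes of Srsf2 were 0.20 (adjusted p = 0.512) and 0.35 (adjusted p = 0.142), and those of Srsf3 were 0.30 (adjusted p = 0.196) and 0.35 (adjusted p = 0.0796). The 3 probe sets of Srsf3 ranged from -0.14 to 0.35 after DCIR2-BDC, so its direction there depends on the probe set. The log2 changes of Srsf4 were 0.47 (adjusted p = 0.193) and 0.41 (adjusted p = 0.197), and those of Srsf6 were 0.17 (adjusted p = 0.742) and 0.54 (adjusted p = 0.13). Srsf11 had changes of 0.04 and 0.16, and Srsf12 had log2 levels between 5.00 and 5.41 on the 6 arrays, near the array medians, so little could be measured.

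Srsf5 was the SR gene with the clearest movement downward, though it did not pass. On the log2 scale it stood at 10.88 and 11.17 in PBS, 10.61 and 10.82 after DEC-BDC, and 10.34 and 10.73 after DCIR2-BDC. Both antibody groups lay below both PBS arrays. The log2 changes were -0.31 (adjusted p = 0.319) and -0.49 (adjusted p = 0.0643), and its second probe set gave -0.37 and -0.49.

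Among the hnRNP genes, Hnrnpll rose in both comparisons. Its protein promotes the skipping of CD45 exons in activated T cells. The arrays read log2 levels of 6.57 and 6.28 in PBS, 7.30 and 7.18 after DEC-BDC, and 7.63 and 7.67 after DCIR2-BDC. The 3 groups stood apart in that order, with close replicates in the antibody groups. The rise was 1.75-fold after DEC-BDC (log2 0.81, SE 0.19, adjusted p = 0.0254) and 2.34-fold after DCIR2-BDC (log2 1.23, SE 0.19, adjusted p = 0.00131). The first call was lost when any 1 array other than PBS array 1 was left out (adjusted p up to 0.137). Hnrnpl, which silences the same CD45 exons, had log2 changes of 0.19 (adjusted p = 0.609) and 0.44 (adjusted p = 0.11), with both antibody groups above PBS.

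Hnrnpab, which encodes an A/B-type hnRNP, had log2 levels of 8.65 and 8.96 in PBS, 9.17 and 9.44 after DEC-BDC, and 9.75 and 9.97 after DCIR2-BDC. The groups stood apart in that order, and the change passed for DCIR2-BDC (2.08-fold, log2 1.06, SE 0.18, adjusted p = 0.00253) and not for DEC-BDC (log2 0.50, adjusted p = 0.139). Hnrnpc, which binds uridine tracts in introns, had log2 levels of 8.61 and 8.74 in PBS, 9.33 and 9.25 after DEC-BDC, and 9.33 and 9.58 after DCIR2-BDC. Its rise of 1.72-fold after DCIR2-BDC passed (log2 0.78, adjusted p = 0.00887), and the log2 change of 0.62 after DEC-BDC stood just outside the threshold (adjusted p = 0.0505). Without PBS array 1 or DCIR2-BDC array 2 the Hnrnpc call after DCIR2-BDC was lost, with adjusted p up to 0.0878.

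Hnrnpu, a nuclear scaffold protein that binds RNA and chromatin, had log2 levels of 10.02 and 10.06 in PBS, 10.47 and 10.45 after DEC-BDC, and 10.66 and 10.65 after DCIR2-BDC. The replicates of each group lay close together and the groups were separate. It rose 1.53-fold after DCIR2-BDC (log2 0.62, SE 0.12, adjusted p = 0.00595), and the log2 change after DEC-BDC was 0.42 (adjusted p = 0.0682). Hnrnpm, an hnRNP that binds GU-rich RNA, rose 1.51-fold after DCIR2-BDC (log2 0.59, adjusted p = 0.0461), a call lost without PBS array 1 or either DCIR2-BDC array (adjusted p up to 0.243), and had a log2 change of 0.52 after DEC-BDC (adjusted p = 0.12).

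The other hnRNP genes did not pass. Hnrnpa0, Hnrnpd, whose protein AUF1 also binds unstable mRNAs, and Hnrnpr had log2 changes of 0.40, 0.50 and 0.34 after DEC-BDC and of 0.63, 0.57 and 0.56 after DCIR2-BDC, with adjusted p between 0.0722 and 0.0756 in the latter. Their antibody arrays lay above PBS in both comparisons. Hnrnpk, which binds cytidine-rich RNA, had changes of 0.17 (adjusted p = 0.678) and 0.28 (adjusted p = 0.357), and Hnrnph2 of 0.15 and 0.30, with its second probe set at -0.29 after DCIR2-BDC.

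Some hnRNP genes had small changes on the probe sets read. Hnrnpa2b1, Hnrnpf, Hnrnph1, Hnrnpdl and Hnrnpul1 had log2 changes of 0.11, 0.03, -0.03, 0.15 and -0.09 after DEC-BDC and of 0.02, 0.18, -0.01, 0.13 and -0.02 after DCIR2-BDC. The 4 probe sets of Hnrnpf ranged from 0.03 to 0.34 after DEC-BDC and from 0.18 to 0.55 after DCIR2-BDC, and the one read had the smallest change in both. For Hnrnph1, the 95% interval of the DCIR2-BDC change went from -0.30 to 0.28, so a change of 2-fold lies outside it. Hnrnpul2 had log2 changes of 0.01 (adjusted p = 0.988) and -0.27 (adjusted p = 0.327), with both DCIR2-BDC arrays below PBS.

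**Figure D2:**
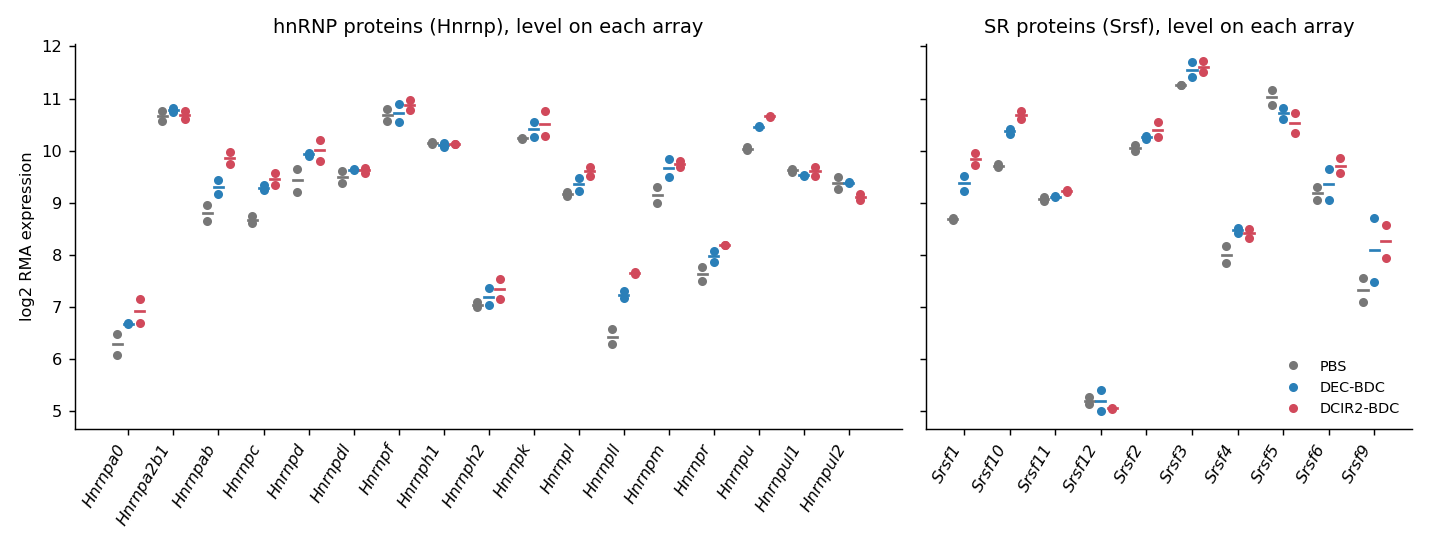
Log2 RMA expression (vertical axis) of the Hnrnp genes (left) and Srsf genes (right) on each array, with points for the 2 arrays of a group and a bar at their mean, in PBS (grey), DEC-BDC (blue) and DCIR2-BDC (red). Hnrnpll and Srsf1 have PBS lowest and DCIR2-BDC highest, Srsf5 has PBS highest, and the DEC-BDC arrays of Srsf9 lie far apart at 7.47 and 8.71.

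**Figure D3:**
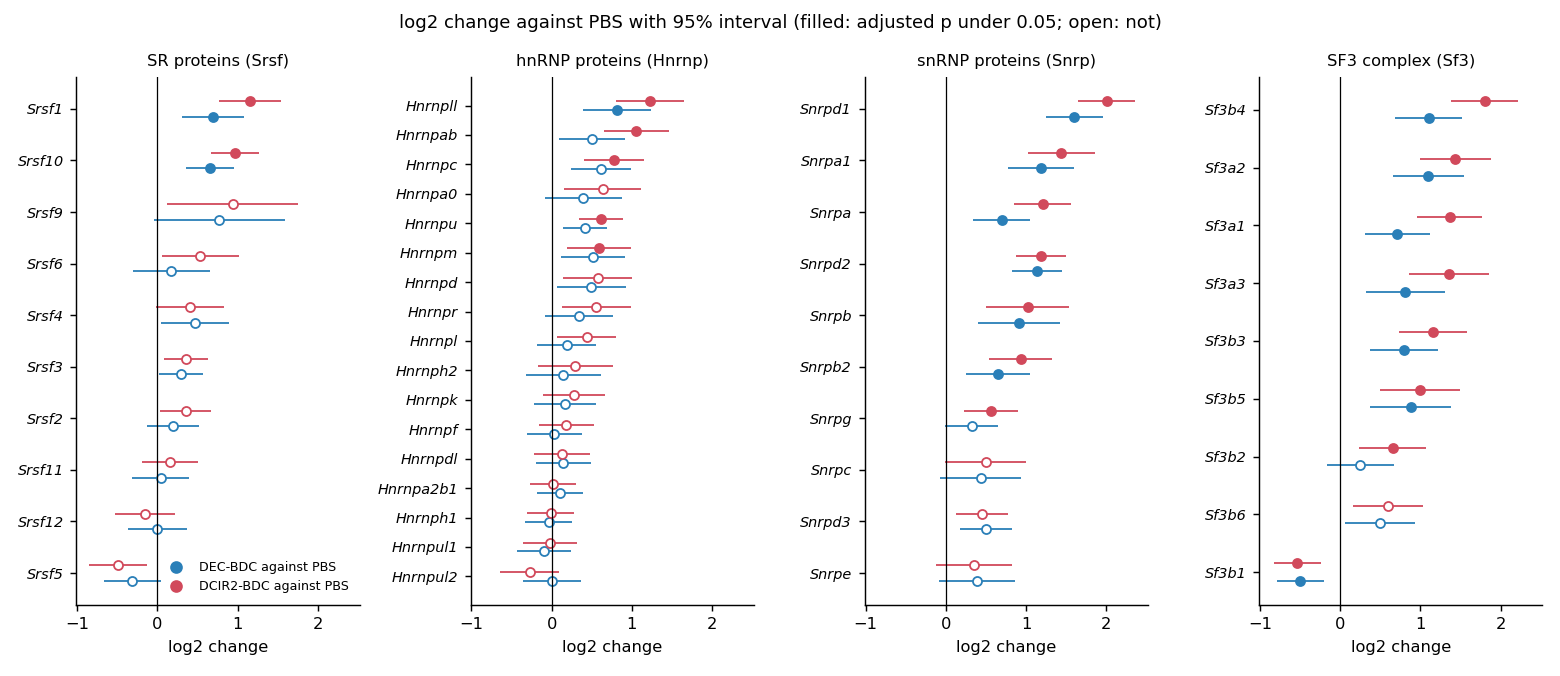
Log2 change against PBS (horizontal axis) of each member by family, with points at the estimate and lines for the 95% interval of the limma fit, for DEC-BDC (blue) and DCIR2-BDC (red), 2 arrays per group, filled where the adjusted p is under 0.05. Most points lie to the right of 0, Snrpd1 farthest at 1.60 and 2.01, and Sf3b1 lies to the left of 0 at -0.50 and -0.53.

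The 2 antibodies were then set against each other, which asks whether the dendritic cell receptor targeted makes a difference to these genes. In DCIR2-BDC against DEC-BDC, none of the 46 genes passed limma's test after adjustment, where 4 of all genes (0.0201%) rose and 0 fell. An unadjusted p under 0.05 was found for 8 of 46 members (17.4%), against 10.2% of all genes. The 8 were Hnrnpab, Sf3a1, Sf3a3, Sf3b4, Snrpa, Snrpd1, Srsf1 and Srsf10, each higher after DCIR2-BDC. The median log2 difference of the members was 0.15, against -0.01 over all genes. Of the 46 members, 37 had the higher mean after DCIR2-BDC, as did 9548 of all 19938 genes. Both DCIR2-BDC arrays lay above both DEC-BDC arrays for 20 members and below them for 3, where 19.3% and 20.9% of all genes did so.

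Sf3b4 had the largest difference, 1.62-fold higher after DCIR2-BDC (log2 0.70, 95% interval 0.28 to 1.11, adjusted p = 0.255). Sf3a1 was next at 1.57-fold (log2 0.65, 95% interval 0.24 to 1.06, adjusted p = 0.274). Hnrnpab, Sf3a3 and Snrpa followed with log2 differences of 0.55 (adjusted p = 0.369), 0.54 (adjusted p = 0.449) and 0.51 (adjusted p = 0.325), and Srsf1 and Hnrnpll had 0.47 (adjusted p = 0.41) and 0.42 (adjusted p = 0.496). For each of these 7 genes, both DCIR2-BDC arrays lay above both DEC-BDC arrays, as their levels above show.

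Snrpd2 had a log2 difference of 0.05 with a 95% interval from -0.27 to 0.36, Sf3b1 of -0.03 with an interval from -0.33 to 0.26, and Snrpb of 0.11 with an interval from -0.41 to 0.63. Snrpd1, the gene with the largest changes against PBS, had a difference of 0.40 with an interval from 0.05 to 0.76 (adjusted p = 0.437), and Srsf10 one of 0.31 with an interval from 0.01 to 0.61 (adjusted p = 0.475). Sf3b2 and Sf3b3 had differences of 0.40 and 0.36. Srsf2, Srsf3, Srsf6, Hnrnpc and Hnrnpk had differences of 0.15, 0.05, 0.36, 0.16 and 0.11. The median half-width of the members' 95% intervals was 0.39 on the log2 scale, and a missed threshold does not show that the antibodies act alike.

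**Figure D4:**
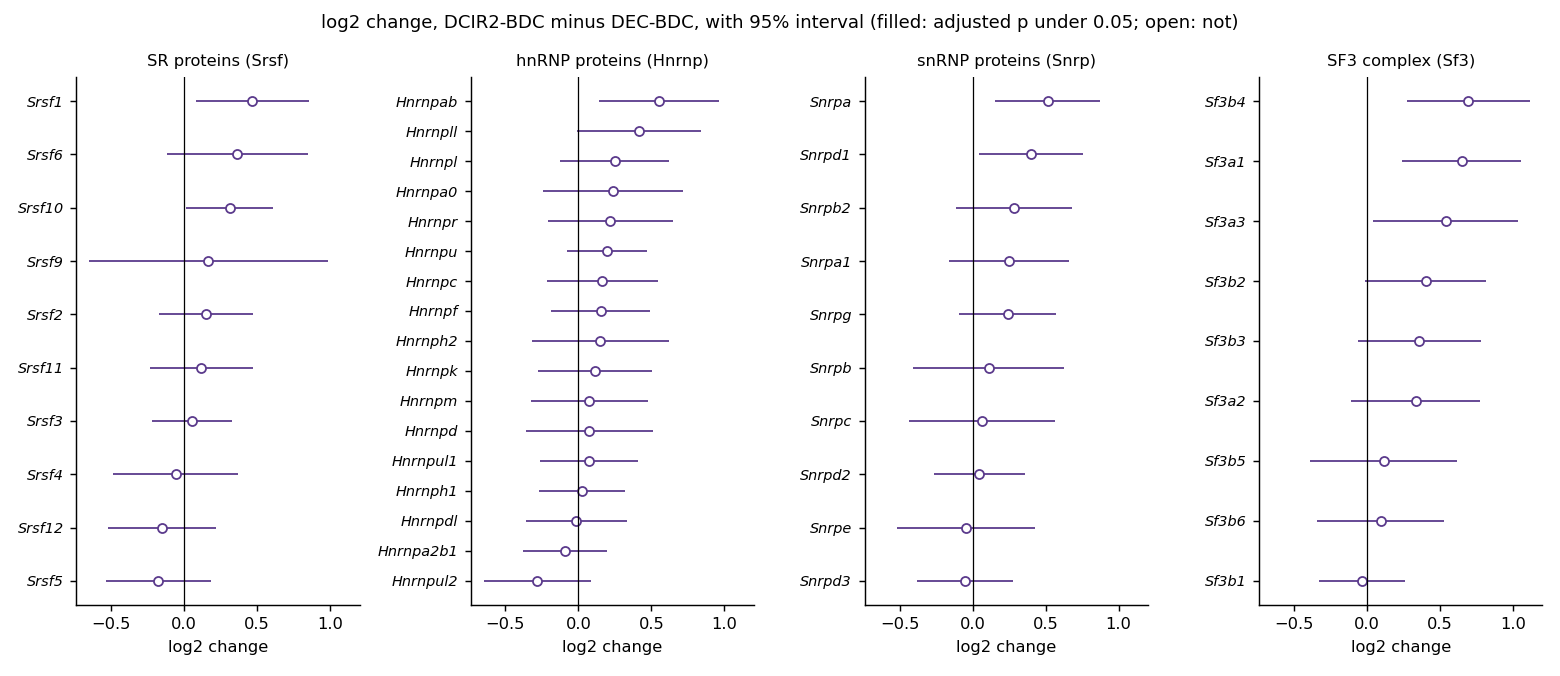
Log2 difference of DCIR2-BDC minus DEC-BDC (horizontal axis) for each member by family, with points at the estimate and lines for the 95% interval of the limma fit, 2 arrays per group. Of the 46 points, 37 lie to the right of 0, the farthest that of Sf3b4 at 0.70.

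Genes of the splicing machinery outside these families were read in 9 lists with 117 of 125 genes measured. Of the 117, 26 rose and 3 fell after DEC-BDC, and 52 rose and 8 fell after DCIR2-BDC, with median log2 changes of 0.33 and 0.56. The rises were 22.2% and 44.4% of the genes, against 5.32% and 10.1% of all genes, and the falls 2.56% and 6.84%, against 3.53% and 7.82%. The first count went to 14 without PBS array 1 and 12 without DEC-BDC array 2. None passed between the antibodies, where 22 (18.8%) had an unadjusted p under 0.05, against 10.2% of all genes.

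Of the factors that assemble Sm rings on snRNAs, 9 of 14 (64.3%) rose after DEC-BDC and 11 of 14 (78.6%) after DCIR2-BDC, against 5.32% and 10.1% of all genes. None fell, and the median log2 changes were 0.92 and 1.43. Prmt5, the methyltransferase that marks Sm proteins before assembly, had log2 levels of 7.07 and 7.03 in PBS, 8.62 and 8.48 after DEC-BDC, and 8.88 and 8.79 after DCIR2-BDC. Its rise was 1.498 (adjusted p = 0.00109) and 1.79 (adjusted p = 0.000123) on the log2 scale. Smn1, the core of the SMN complex that loads the ring, had log2 changes of 1.29 (adjusted p = 0.00491) and 1.83 (adjusted p = 0.000247), and its partner Gemin4 of 1.32 (adjusted p = 0.0063) and 1.71 (adjusted p = 0.00052). The arrays of these 3 genes did not overlap with PBS.

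Of the tri-snRNP genes, 4 of 15 (26.7%) rose after DEC-BDC and 11 of 15 (73.3%) after DCIR2-BDC, against 5.32% and 10.1% of all genes. Eftud2, the GTPase of the U5 snRNP, had log2 changes of 1.10 (adjusted p = 0.00586) and 1.55 (adjusted p = 0.000309), and Prpf31 of 0.97 (adjusted p = 0.0492) and 1.65 (adjusted p = 0.00161). The Prpf31 call after DEC-BDC passed in 7 of 14 alternatives (adjusted p up to 0.282) and was lost without PBS array 1, DEC-BDC array 2 or either DCIR2-BDC array. The Prp19 complex and later helicases had 2 (10.5%) and 9 (47.4%) of 19 rise, against the same shares of all genes. Among them was Prpf19, a ubiquitin ligase of the active spliceosome, with log2 changes of 1.16 (adjusted p = 0.00367) and 1.497 (adjusted p = 0.000303). Of the 8 Lsm ring genes, which encode the ring on U6 and a decay complex, 4 (50%) rose in each comparison. Of 9 exon junction complex genes, 3 (33.3%) and 4 (44.4%) rose, led after DCIR2-BDC by Eif4a3 at 1.56 (adjusted p = 0.000215).

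Of 12 U1, U2 and U2AF genes outside the Snrp and Sf3 families, 1 (8.33%) rose after DEC-BDC and 3 (25%) after DCIR2-BDC. U2af1, which reads the AG at the 3′ splice site, had log2 changes of 0.71 (adjusted p = 0.0273) and 1.14 (adjusted p = 0.00107), and its first call was lost without either PBS array or either DEC-BDC array (adjusted p up to 0.143). Phf5a, an SF3b subunit singled out after its values were seen because its symbol lies outside the family, had changes of 0.23 (adjusted p = 0.745) and 0.48 (adjusted p = 0.351). Of 6 genes of the minor spliceosome, which removes a rare class of introns, none passed after DEC-BDC. After DCIR2-BDC 1 (16.7%), Snrnp35, rose (log2 0.75, adjusted p = 0.0357), a call lost without either PBS array or either DCIR2-BDC array. Its log2 levels were 4.83 and 4.85 in PBS, 4.64 and 5.41 after DEC-BDC, and 5.57 and 5.62 after DCIR2-BDC. These lie near or below the array medians, so this rise is that of a dim gene.

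Among the kinases of SR proteins and their importer, 2 of 8 (25%) fell and 0 rose after DEC-BDC, where 3.53% of all genes fell. After DCIR2-BDC, 3 (37.5%) fell and 1 (12.5%) rose, against 7.82% and 10.1% of all genes. The 1 that rose was the importer gene Tnpo3 (log2 0.80, adjusted p = 0.00911). Clk1, a nuclear kinase of SR proteins, had log2 levels of 9.73 and 9.83 in PBS, 9.14 and 8.51 after DEC-BDC, and 8.61 and 8.44 after DCIR2-BDC. It fell by 0.95 (adjusted p = 0.0217) and by 1.26 (adjusted p = 0.00233), and its relative Clk4 fell by 0.85 (adjusted p = 0.0292) and by 1.18 (adjusted p = 0.0026). Srpk2, a cytoplasmic SR kinase, fell by 1.35 after DCIR2-BDC (adjusted p = 0.00164) and had a log2 change of -0.55 after DEC-BDC (adjusted p = 0.18). The calls for Clk1, Clk4 and Srpk2 after DCIR2-BDC passed in all 14 alternatives. After DEC-BDC, the Clk1 call passed in 10 of 14 and the Clk4 call in 9 (adjusted p up to 0.143 and 0.174), and both were lost without either PBS array or DEC-BDC array 2.

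Of 26 other splicing regulators, 3 (11.5%) rose and 1 (3.85%) fell after DEC-BDC, against 5.32% and 3.53% of all genes. The share that fell was thus near that of all genes. After DCIR2-BDC, 8 (30.8%) rose and 5 (19.2%) fell, against 10.1% and 7.82%. Ptbp1, which binds pyrimidine tracts and represses exons, had log2 levels of 8.88 and 8.75 in PBS, 9.90 and 10.06 after DEC-BDC, and 10.38 and 10.46 after DCIR2-BDC. It rose by 1.16 (adjusted p = 0.00161) and by 1.61 (adjusted p = 8.83e-05) on the log2 scale. Elavl1, encoding the mRNA-stabilising protein HuR, rose by 0.88 (adjusted p = 0.0111) and by 1.21 (adjusted p = 0.000778). Rbm5, a regulator of splice site pairing, fell by 0.65 after DEC-BDC (adjusted p = 0.0312) and by 0.65 after DCIR2-BDC (adjusted p = 0.0173), and Mbnl2, a muscleblind splicing regulator, fell by 1.09 after DCIR2-BDC (adjusted p = 0.0178). The DEC-BDC call of Rbm5 passed in 7 of the 14 alternatives, the DEC-BDC call of Elavl1 in 10 and the DCIR2-BDC call of Mbnl2 in 11. These were lost without any 1 array except DCIR2-BDC array 2 for Rbm5 (adjusted p up to 0.164), without PBS array 2 or either DEC-BDC array for Elavl1 (up to 0.0577), and without PBS array 2 or DCIR2-BDC array 1 for Mbnl2 (up to 0.172).

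**Figure D5:**
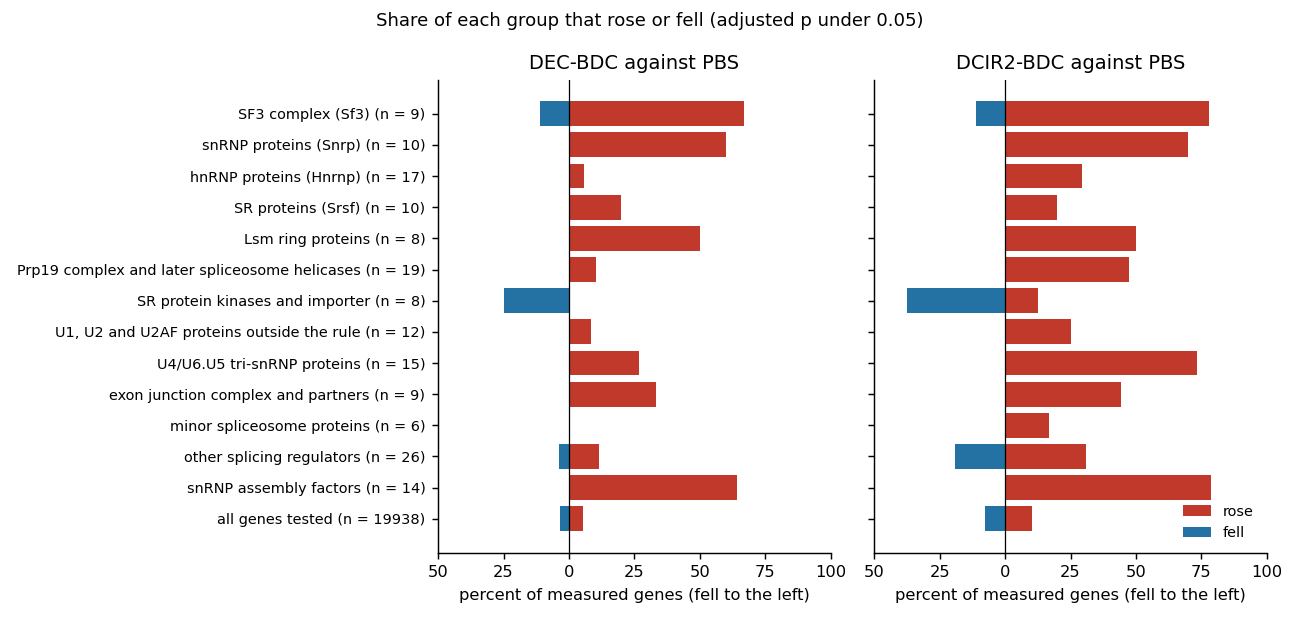
Percent of measured genes (horizontal axis) that rose (red, to the right) or fell (blue, to the left) at an adjusted p under 0.05 in each of the 4 families, the 9 other splicing lists and all genes tested, for DEC-BDC and DCIR2-BDC against PBS, 2 arrays per group. After DCIR2-BDC the snRNP assembly factors (78.6%), Sf3 (77.8%), tri-snRNP (73.3%) and Snrp (70%) bars are the longest, against 10.1% of all genes, and the SR protein kinases and importer have the longest bar for falls (37.5%).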

How the data were processed

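Per the design text and the submitters' processing notes, the authors ran RMA in Partek (versions not given in the sources used here) and deposited 1 log2 value for each probe set and array. Per the labels' protocols, 5 ng of total RNA per sample was amplified before labelling. Of 35556 probe sets, 21789 name 1 symbol in the platform annotation, 1621 several and 12146 none.

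For each gene the brightest probe set naming it alone was kept. One mean per group was fitted over the 6 arrays with limma 3.58.1 in R 4.3.3 (lmFit, eBayes with an intensity trend), with two-sided p-values adjusted by Benjamini-Hochberg over 19938 genes and a threshold of 0.05. The design text calls the arrays biological duplicates. Whether the mice were single or pooled is not stated in the sources used here, so p-values measure the spread between these samples. The script was tested on simulated data.

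The alternatives left out each array in turn, fitted only the 4 arrays compared, took the replicate number as a block, changed the scaling (quantile, median centring), tested every probe set, dropped the dimmest 50% of genes, averaged the probe sets of a gene, or used no trend. The same alternatives were added for the other splicing lists after seeing the data. The members and lists were chosen with earlier results of these data known. The naming rule took, per comparison, the 10 largest rises and falls that passed without overlap, the 2 largest changes per family, 10 fixed genes, and up to 3 genes per other list. The remaining members are named so that each is accounted for, and other genes named beyond the rule were chosen after their values were seen.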

Additional observations from a re-analysis of the deposited data

How the results depend on the processing

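With 2 arrays per group, the counts rest on few samples, and the cause of each shift below was not tested. After DEC-BDC, the 15 rises became 5 to 9 when 1 array was left out, 8 with only the 4 arrays compared and 4 with every probe set tested. The 1 fall became 0 in each fit without an array, with only the 4 arrays compared, with median centring, with every probe set tested and with no trend. After DCIR2-BDC, the 1 fall was 0 to 1 when an array was left out, 0 with median centring, and 2 with quantile normalization, without the dimmest 50% of genes and with the replicate block. With the replicate block, 17 members rose and 1 fell after DEC-BDC, 26 rose and 2 fell after DCIR2-BDC, and 0 changed between the antibodies, while Sf3a3 lost its call after DEC-BDC. The labels do not say that the numbers pair the samples, and the deviations of same-numbered samples correlated at 0.145, 0.131 and 0.0714 over genes. Median centring moved the median of all genes by 0.106 in DCIR2-BDC against PBS. With it, 1186 genes rose and 498 fell after DEC-BDC against 1060 and 703, and 2394 and 1173 after DCIR2-BDC against 2008 and 1560. The 21 rises of members after DCIR2-BDC were 27 with median centring, 18 with quantile normalization and 16 with every probe set tested. They were also fewer without either PBS array or either DCIR2-BDC array, and fewest without DCIR2-BDC array 2. In at least 1 alternative the direction turned for 7 members after DEC-BDC, 5 after DCIR2-BDC and 20 between the antibodies, none of them called. Among the genes named by rule in a comparison, this held for 4 differences between the antibodies: with 1 array left out, Snrpb ranged from -0.16 to 0.38, Srsf3 from -0.0935 to 0.201 and Hnrnpk from -0.13 to 0.353, Srsf3 was -0.0256 with the mean of its probe sets, and Sf3b1 turned to 0.0049 with median centring. Depth does not apply to arrays, and their number limits the precision.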

Other observations

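The probe sets that carry a splicing gene together with another symbol entered no test and are given as log2 changes against PBS. The 5 probe sets shared by Hnrnpa1, which encodes one of the most abundant hnRNP proteins, and its pseudogenes changed by 0.40 to 0.68 after DEC-BDC and by 0.60 to 0.91 after DCIR2-BDC. The 9 probe sets shared by Hnrnpa3 and a pseudogene changed by 0.07 to 0.54 and by 0.07 to 0.59. The probe set of Snrpf, the remaining gene of the Sm ring, changed by 0.75 and 0.85 and is shared with a predicted gene. That of Snurf and Snrpn, whose SmN protein can replace SmB, changed by 0.20 and -0.18, and that of Hnrnph3 and Aff3 by -0.38 and -0.72, with no way to assign the change to either gene.

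Lsm6 encodes a subunit of the Lsm rings. Its log2 levels were 7.93 and 7.85 in PBS, 9.51 and 9.03 after DEC-BDC, and 8.58 and 8.40 after DCIR2-BDC. It rose by 1.38 after DEC-BDC (limma, adjusted p = 0.00294), its log2 change after DCIR2-BDC was 0.60 (adjusted p = 0.0744), and the difference of -0.78 between the antibodies did not pass (adjusted p = 0.239).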
